A study of Homo sapiens with 7 samples.

Results

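Chromosome 19 contacts were followed through 7 Hi-C libraries of DLD-1, an established human cell line of colorectal adenocarcinoma. The regions are the 22 pairs of chromosome 19 with the other chromosomes, out of 253 pairs among chromosomes 1 to 22 and X, the separations within its arms 19p and 19q from 100 kb on (1169 of the 60538 arm separations measured in steps of 50 kb) and those between the arms (1171 of 60584). The chromosome was chosen by earlier contact values of these same libraries, in which it stood apart in contact with other chromosomes and in contact at 10 Mb or more, so its differences in contact of both kinds are given as a description, with no test. Hi-C joins DNA pieces that lie close together in the nucleus and counts each joined pair as a contact.

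In the order used for each comparison, the libraries were DNMT1-AID cells given auxin for 4 d, for 10 d, or for 4 d with a washout of 4 d behind it, each set against untreated DNMT1-AID cells, and DNMT1-AID;DNMT3b -/- cells (below, knockout cells) after 4 d and 10 d of auxin, set against untreated knockout cells. The label of the untreated knockout library names the knockout only in its title, since its genotype label gives DNMT1-AID alone. All libraries come from cells whose DNMT1, the enzyme that copies DNA methylation onto the new strand after replication, is fused to an auxin-inducible degron, so the untreated cells carry the tag too, and auxin was indole-3-acetic acid. DNMT3B is an enzyme that sets methylation on DNA that had none. The labels give no level of either protein and do not say whether a line is 1 clone. Each group held 1 library, so no difference was tested, and the intervals given cover counting error only. The libraries held 27345260 contacts (washout) to 222645438 contacts (DNMT1-AID, 4 d), of which 581183 to 4480375 had an end on chromosome 19, and the 3 DNMT1-AID comparisons share their untreated library, as do the pair of knockout comparisons.

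Each chromosome fills its own territory in the interphase nucleus, and gene-rich chromosomes tend to lie towards its centre, where they meet each other more often than they meet gene-poor ones. Chromosome 19 is known for its high gene density and for large clusters of KRAB zinc finger genes, many of whose products silence transposable elements. The heterochromatin over zinc finger gene clusters is known to carry H3K9me3, a repressive mark of histone H3, and the labels name DNMT1 and DNMT3B, enzymes of DNA methylation, as the proteins targeted in these cells.

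The content of chromosome 19 differed from that of the rest of the genome. In the RefSeq annotation of GRCh38.p14 it held 1451 protein-coding genes, of which 250 have a symbol of the form ZNF and a number. The tables place 19p at chr19:1-25850000 and 19q at chr19:25850001-58650000 of hg38, which gives 517 and 656 bins of 50 kb, and 84 of the zinc finger genes lay on 19p and 166 on 19q. In the authors' clustering of untreated DNMT1-AID bins, 41.8% of 1003 chromosome 19 bins were in cluster A1, against 6.31% of 45039 bins on the other clustered chromosomes. Cluster B4 took 15.4% of chromosome 19 bins, against 0.284% elsewhere, so that 154 of all 282 B4 bins (54.6%) lay on chromosome 19. The file gives these names with no description, and chromosomes 13 and X are not used in this clustering.

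The flanks of the centromere were unlike each other. Within 10 Mb of the arm boundary, 35.1% of 131 clustered 19p bins were B4 and 44.3% were A1, and this stretch of 19p held 37 of the ZNF genes. The same distance into 19q held 7 ZNF genes, none of its 162 clustered bins was A1, 1 was B4 and 41.4% were B2/B3. Outside these flanks, A1 took 66.1% of 304 bins of 19p and 39.4% of 406 bins of 19q.

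**Figure D1:**
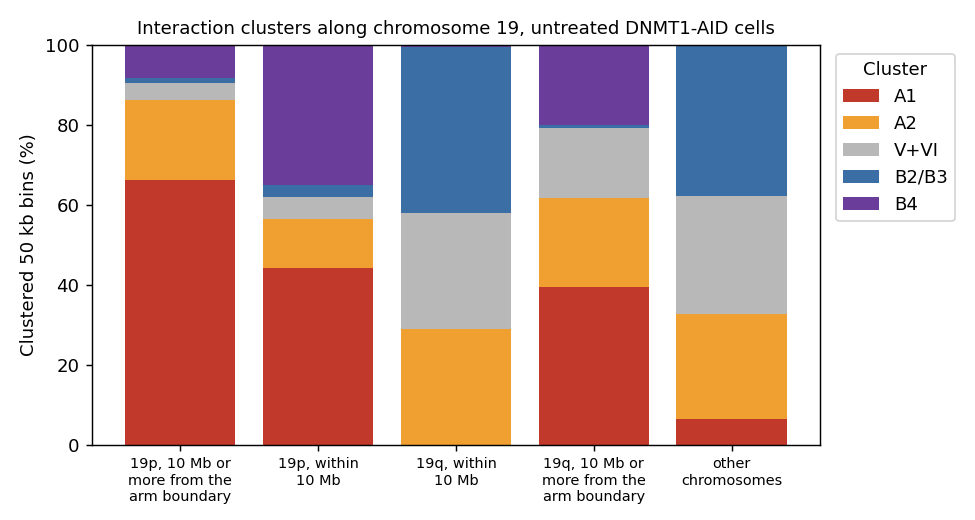
Stacked bars give the share of clustered 50 kb bins (%) in each of 5 clusters, for 4 stretches of chromosome 19 and for the other chromosomes, in untreated DNMT1-AID cells. B4 (top) is 35.1% of bins on the 19p flank of the arm boundary and 0.617% on the 19q flank, and A1 (bottom) is absent from the 19q flank.

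Which chromosomes chromosome 19 met most often was much the same in all 7 libraries. Contact with a partner is the balanced contact per valid bin pair, given as a multiple of the median of the 253 chromosome pairs in that library. Chromosome 22 was the leading partner, at 3.67 times the median pair in untreated DNMT1-AID cells, 3.45 after 4 d, 3.36 after 10 d and 3.73 after washout, and at 3.18, 3.35 and 3.32 in knockout cells untreated, after 4 d and after 10 d. Chromosome 17 followed with 2.63 in untreated DNMT1-AID cells and chromosome 20 with 2.29. Partners 22, 17 and 20 held ranks 1, 2 and 3 in every library, chromosome 15 held rank 6, and chromosomes 4 and X held ranks 21 and 22. The 4th and 5th ranks belonged to the near neighbours 21 (2.10) and 16 (2.04), whose order turned in the washout library and in knockout cells untreated and after 10 d.

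At the low end stood the X chromosome, at 0.638 times the median pair in untreated DNMT1-AID cells. Chromosomes 4 (0.761), 2 (0.796), 3 (0.817) and 13 (0.832) came just above it. The 4 small gene-rich partners 16, 17, 20 and 22 had a median of 2.46, the 5 acrocentric ones, which carry the ribosomal RNA gene arrays (13, 14, 15, 21 and 22), 1.59, and the 5 gene-poor ones (4, 5, 13, 18 and X) 0.832. Some middle neighbours were within counting error of each other, such as chromosomes 9 (1.394) and 18 (1.391). The smallest number of raw contacts behind a partner was 5466, for X in the washout library. Across the 22 partners, the level in untreated DNMT1-AID cells had r = 0.79 with protein-coding genes per valid Mb, r = -0.78 with the partner's valid length, and r = 0.85 with its share of A1 bins over the 20 partners that have clusters. These points share a library and chromosome 19 itself, and small chromosomes are often gene-rich, so they are given as a description.

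The share of chromosome 19 contacts that joined another chromosome was among the highest of the 23 chromosomes, at rank 3 or 4 in every library. In DNMT1-AID cells it was 46.15% untreated, 46.13% after 4 d, 53.9% after 10 d and 49.4% after washout. Knockout cells gave 51.4% untreated, 52.0% after 4 d and 56.9% after 10 d. The widest of the 95% exact binomial (Clopper-Pearson) intervals was that of the washout library, 49.3% to 49.5%. The 10 d libraries were thus the highest of each genotype, and the 4 d libraries lay close to their untreated ones.

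Set against the other chromosomes, the 4 d value was unusual and the 10 d value was not. After 4 d in DNMT1-AID cells the log2 change of the share was -0.00051 on chromosome 19, the highest of 23 chromosomes, whose median was -0.047. After 4 d in knockout cells it was 0.019, again the highest of 23, against a median of -0.031. At 10 d the log2 change was 0.22 in DNMT1-AID cells (rank 13 of 23, median 0.24) and 0.15 in knockout cells (rank 16, median 0.17). Washout gave 0.098 (rank 7, median 0.090), and untreated knockout over untreated DNMT1-AID cells gave 0.15 (rank 17, median 0.18).

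The share of all contact ends that fell on chromosome 19 moved as well. It was 7.25% higher after 10 d and 2.63% higher after washout than in untreated DNMT1-AID cells, each the highest of 23 chromosomes. In knockout cells it was 7.43% lower after 4 d, the lowest of 23, and 7.35% higher after 10 d, the highest of 23. DNMT1-AID cells after 4 d were 0.732% lower, and knockout over DNMT1-AID untreated was 2.16% higher. The part of this shift in coverage in the results on contacts was not tested.

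**Figure D2:**
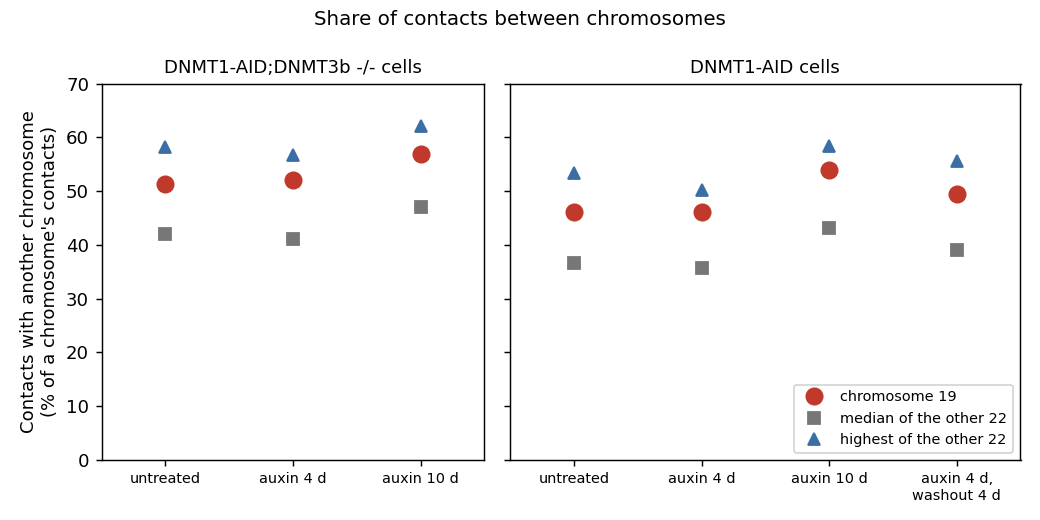
Points give the share of a chromosome's contacts that join another chromosome (%), by library, with knockout cells on the left and DNMT1-AID cells on the right. Chromosome 19 lies between the median and the highest of the other 22 chromosomes throughout, at 46.13% to 56.9%.

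After 4 d of auxin, chromosome 19 of DNMT1-AID cells had slightly more contact with most partners relative to the median pair than without auxin, and slightly less with the small gene-rich ones. All 5 gene-poor partners lay above 0 in relative log2 change (median 0.061), and 0 of the 4 small gene-rich ones did (median -0.031). Of 22 partners, 15 lay above 0 in relative log2 change, with a median of 0.039, against 70 of the 231 other pairs, whose median was -0.015. The median of chromosome 19 was the highest of the 23 chromosomes, and the next was X at 0.0061. The highest partners were 4 (0.818 times the median pair at 4 d, against 0.761 untreated, log2 0.10), 3 (0.095) and 2 (0.087). The lowest were 22 (3.45, against 3.67, log2 -0.089), 15 (-0.042) and 20 (-0.035). Chromosome 22 also had the lowest median change of the 23 chromosomes over all its pairs (-0.080). With a change of at least 0.1 as the mark, 1 partner (chromosome 4) was higher and 0 were lower, where 0.395% of all 253 pairs were higher and 4.74% lower; chromosome 4 was thus the only pair of the genome past it upwards.

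After 10 d the same contrast between partners was wider in balanced contact. The highest partners were X (0.709 times the median pair at 10 d, against 0.638 untreated, log2 0.15), 4 (0.13) and 3 (0.11). Chromosomes 2, 5, 6 and 8 also passed the mark, so that 7 partners were higher, where 2.77% of all pairs were, and these 7 were the only such pairs of the 253. Lower by the mark was 1 partner, chromosome 22 (3.36, against 3.67, log2 -0.13), where 13.4% of all pairs were. Chromosomes 17 (-0.080) and 16 (-0.038) came next. Over all its pairs, chromosome 22 had the lowest median change of the 23 chromosomes (-0.10), and X had the highest (0.066). None of the 4 small gene-rich partners lay above 0 (median -0.059), and all 5 gene-poor ones did (median 0.11), while 1 of the 5 acrocentric partners did (median -0.011).

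The order between lists was also present on another scale, which by its make-up cannot show a common upward shift of the partners. Raw counts were divided by the product of both chromosomes' totals of contacts with other chromosomes. This takes out each chromosome's own share of such contacts, and with it a shift common to its partners. On this scale 12 of 22 partners lay above 0 after 4 d and 12 after 10 d, with medians of 0.0024 and 0.0059. No partner then reached 0.1 in either direction at 10 d, where the raw values ran from -0.067 (chromosome 22) to 0.080 (chromosome 10). The 4 small gene-rich partners all stayed below 0 in both comparisons, with raw medians of -0.046 after 4 d and -0.044 after 10 d. Of the 5 gene-poor partners, 4 stayed above 0, with raw medians over all 5 of 0.013 and 0.011. The contrast between these lists was thus not wider at 10 d on raw counts.

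After washout, the partners stood close to their untreated levels. The relative changes ran from -0.021 to 0.068, and no partner passed the mark in either direction (0.0% higher and 0.0% lower among all 253 pairs). Above 0 were 19 of 22 partners with a median of 0.029, against 118 of the 231 other pairs, whose median was 0.0005. The median of chromosome 19 was the highest of the 23 chromosomes, as after 4 d, and the next was chromosome 5 at 0.015. On raw counts, the scale that takes out a common shift, 11 of 22 partners lay above 0. In balanced contact the highest were 1 (0.068), 4 (0.063) and 6 (0.056), the lowest 13 (-0.021), 18 (-0.0067) and 21 (-0.0056). The counting half-width reached 0.043, so 11 of the 22 lay within counting error of 0. Set against 4 d of auxin, from which this library was washed, chromosome 22 was the highest partner at 0.11 (3.73 times the median pair, against 3.45), and all 4 small gene-rich partners were higher (median 0.064) while 0 of the 5 gene-poor ones were (median -0.047). In that comparison chromosome 22 also had the highest median change of the 23 chromosomes over all its pairs (0.054).

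In knockout cells, the highest partners after auxin were others than in DNMT1-AID cells. After 4 d, 17 of 22 lay above 0 (median 0.036), against 121 of the 231 other pairs (median 0.0026). The highest were the acrocentric chromosomes 21 (2.26 times the median pair at 4 d, against 1.98 untreated, log2 0.19) and 15 (0.11) and then 18 (0.098). The lowest were 7 (-0.025), 11 (-0.021) and X (-0.012). Over all its pairs, chromosome 21 had the highest median change of the 23 chromosomes (0.037), and chromosome 19 was next (0.036). Past the mark were 2 partners upwards, where 1.19% of all pairs were, and 0 downwards, where 0.0% were. All 5 acrocentric partners were higher (median 0.078), and 3 of the 4 small gene-rich ones (median 0.050). Of the 5 gene-poor partners, 3 were higher (median 0.062), where DNMT1-AID cells after 4 d had all 5 higher (median 0.061).

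After 10 d in knockout cells, 19 of 22 partners lay above 0 (median 0.058), against 112 of the 231 other pairs (median -0.00081). Chromosome 21 was again the highest (2.24 times the median pair, against 1.98, log2 0.18), followed by 20 (2.70, against 2.44, log2 0.15) and 15 (0.12), and the partners 10 (0.11) and 17 (0.10) passed the mark as well. That makes 5 partners higher, where 3.95% of all pairs were, and 0 lower, where 3.56% were. The lowest were X (-0.074), 4 (-0.031) and 3 (-0.023). Chromosome 21 again had the highest median change of the 23 chromosomes over all its pairs (0.060), and chromosome 19 was next (0.058). All 4 small gene-rich partners were higher (median 0.086), where DNMT1-AID cells had all 4 lower at the same time, and this difference between genotypes was not tested. On raw counts the number of partners above 0 was 11 at both times, and the values at 10 d ran from -0.11 (X) to 0.096 (chromosome 17). Above 0 on this scale at 10 d were 4 of 4 small gene-rich partners and 0 of 5 gene-poor ones (median -0.059). In balanced contact 3 of the 5 gene-poor partners were higher at 10 d (median 0.052), so the sign of their median depended on the scale.

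Without auxin, single partners differed between knockout and DNMT1-AID cells, about as often as pairs in the whole genome did. Chromosome 8 was the highest (1.14 times the median pair in knockout cells, against 0.978 in DNMT1-AID cells, log2 0.21), followed by 16 (0.11) and 20 (0.088). Contact ends on chromosome 8 were 1.42-fold as frequent in the knockout library, and its median change over all its pairs was 0.21; on raw counts over totals the change with chromosome 19 was 0.032. The lowest were 22 (3.18, against 3.67, log2 -0.21), 15 (-0.16) and 13 (-0.14), and all 5 acrocentric partners were lower (median -0.14). Past the mark were 2 partners upwards, where 9.49% of all pairs were, and 4 downwards, where 14.2% were. Above 0 lay 8 of 22 partners, where 80 of the 231 other pairs did, and 14 of 22 on raw counts.

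**Figure D3:**
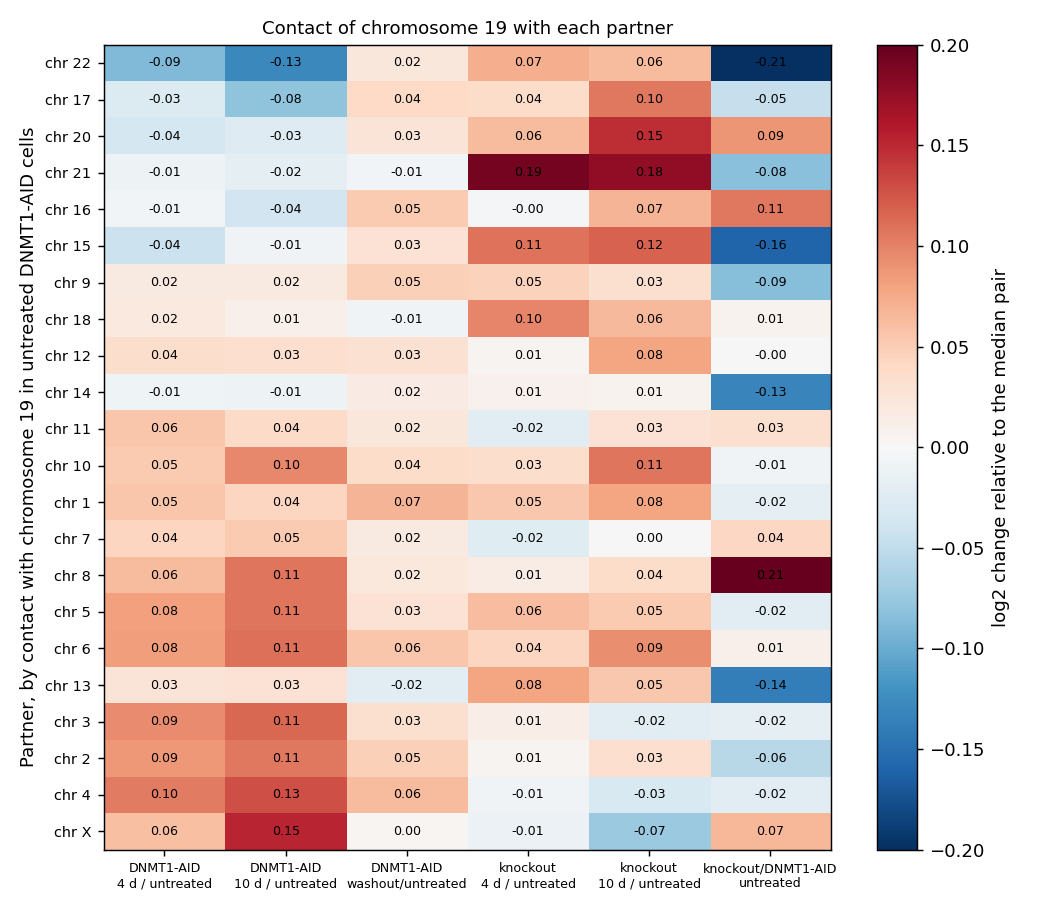
Cells give the log2 change of contact between chromosome 19 and each partner, relative to the median of 253 pairs, in 6 comparisons (columns), with partners ordered by contact in untreated DNMT1-AID cells. In DNMT1-AID cells with auxin the upper rows are below 0 (chromosome 22, -0.13 at 10 d) and the lower rows above it (X, 0.15), while in knockout cells chromosome 21 is highest at 4 d (0.19) and 10 d (0.18).

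Over the 22 partners, changes were set beside the partners' gene density and length as a description. In DNMT1-AID cells the change after 10 d had r = -0.75 with genes per valid Mb and 0.80 with valid length, and the change after 4 d -0.65 and 0.88. In knockout cells the values with genes per valid Mb were 0.0085 after 4 d and 0.35 after 10 d, and those with valid length -0.52 at both times, opposite in sign to DNMT1-AID cells. On raw counts the values with genes per valid Mb were -0.43 and -0.52 in DNMT1-AID cells at 4 d and 10 d, and 0.30 and 0.69 in knockout cells, so that at 10 d the larger one was that of knockout cells. All points share chromosome 19, the libraries and their depth.

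Within its arms, chromosome 19 had a smaller share of far contacts after 4 d of auxin in DNMT1-AID cells. Contacts at 10 Mb or more were 2.49% of those within 19p (95% interval 2.46% to 2.52%), against 3.75% untreated (3.70% to 3.81%), a log2 change of -0.59 and the lowest of 41 arms. They were 4.64% of those within 19q, against 6.48% untreated, a log2 change of -0.48 and next to lowest, where the median arm gave -0.22. By a change of at least 0.1, both arms of chromosome 19 were past the mark, but so were 100.0% of all arms. After washout the shares were 3.68% on 19p and 6.75% on 19q, and 2.44% of arms passed the mark, neither of them on chromosome 19; against 4 d, 19p was the arm with the highest log2 change (0.56) and 19q the next (0.54).

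After 10 d the arms of chromosome 19 differed less from untreated but still stood lowest. The share at 10 Mb or more was 3.02% on 19p at 10 d, against 3.75% untreated (log2 -0.31), and 6.06% on 19q, against 6.48% (log2 -0.098), where the median arm gave 0.040. Past the mark was 1 arm of chromosome 19, 19p, where 4.88% of all arms were. On 19p the sign depended on the boundary: with contacts counted from 15 Mb, the log2 change was 0.058.

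In knockout cells the share was lower on 19p after 4 d and higher on 19q after 10 d. After 4 d the share was 2.67% on 19p, against 3.14% untreated (log2 -0.23, the lowest arm), and 5.20% on 19q, against 5.36% (log2 -0.042), so 19p alone passed the mark, where 22% of arms did. After 10 d it was 3.22% on 19p (log2 0.037, the lowest of 41 arms, whose median was 0.24) and 6.51% on 19q (log2 0.28), and 19q passed the mark, where 95.1% of arms did. Untreated knockout cells had less far contact than untreated DNMT1-AID cells on both arms (log2 -0.26 and -0.27), where 97.6% of arms passed the mark and the median arm gave -0.28.

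Split by separation, the changes of 19p in DNMT1-AID cells centred on 10 to 15 Mb. Balanced contact per bin pair at that distance had a log2 change of -0.55 after 4 d (20337 raw contacts at 4 d, 15375 untreated) and -0.54 after 10 d, each the lowest of 41 arms, whose medians were -0.10 and -0.09. From 1 to 2 Mb, 19p was the lowest of 41 arms in all 5 comparisons of treated with untreated cells. Its balanced values lay between -0.10 (DNMT1-AID, 4 d, median arm 0.045) and -0.28 (DNMT1-AID, 10 d, median arm -0.13). As a raw share of 19p contacts, the change at 1 to 2 Mb was 0.069 in knockout cells after 10 d, against -0.17 in balanced contact. In the other comparisons of this set the raw share was below 0 too. Below 1 Mb the value of 19p in DNMT1-AID cells after 4 d was above 0, with a log2 change of 0.16 at 0.25 to 0.5 Mb. The arm of 19q had its lowest place among the arms at 5 to 10 Mb, with log2 changes of -0.21 after 4 d and -0.33 after 10 d in DNMT1-AID cells, -0.16 after washout and -0.11 after 4 d in knockout cells, each the lowest of 41.

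The farthest contacts within 19p, those of the short arm's tip with its centromeric end, were higher after 10 d in knockout cells. At 15 to 20 Mb in knockout cells the log2 change was 0.44, the highest of 40 arms (3015 raw contacts at 10 d, 1789 untreated), and at 20 Mb or more 0.81, the highest of 39 (216 raw contacts, 97 untreated, counting half-width 0.35). As raw shares of 19p contacts the changes were 0.31 and 0.72. Valid bin pairs numbered 7931, against 10320 untreated, in the nearer class and 1521, against 2373, in the farther one. The part of this in the values was not tested. In DNMT1-AID cells after 10 d the 15 to 20 Mb class was lower in balanced contact, with a log2 change of -0.12 (3004 raw contacts at 10 d, 2101 untreated). This was rank 30 of 40 arms, whose median was -0.088. As a raw share of 19p contacts the change was 0.039, within the counting half-width of 0.080. At 20 Mb or more these cells had the highest balanced value of 39 arms after 10 d, 0.33. It rested on 158 raw contacts, against 82 untreated, and lay within the counting half-width of 0.39. After washout that class held 11 raw contacts, and its change of -1.0 was just outside a half-width of 0.91.

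**Figure D4:**
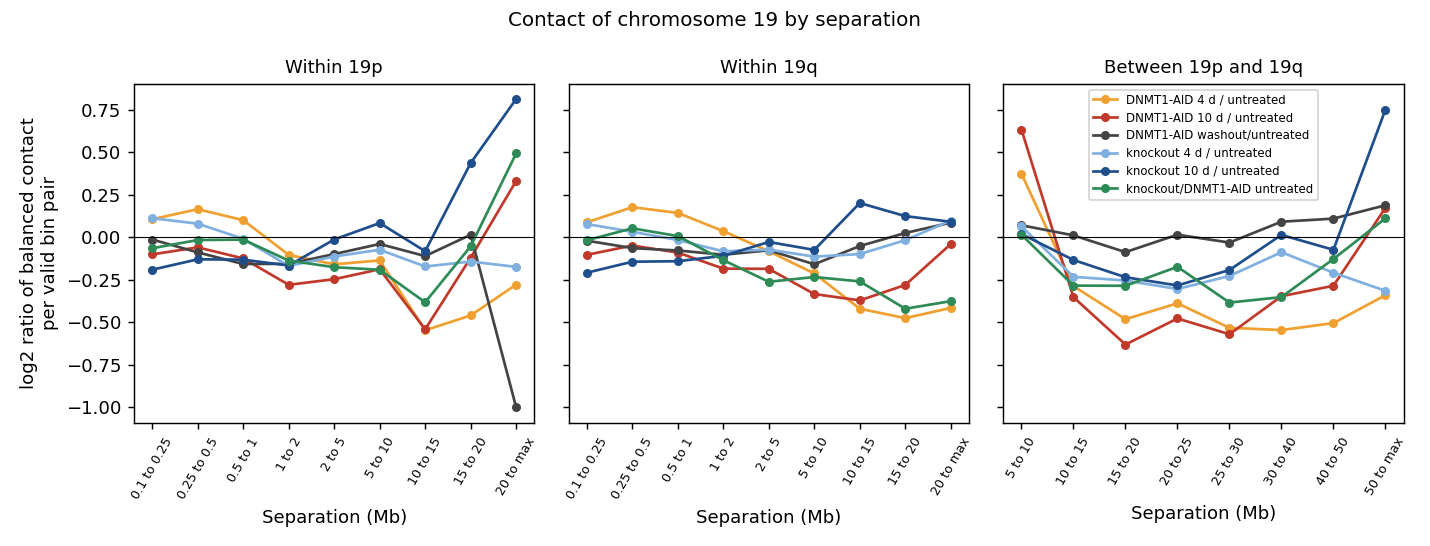
Lines give the log2 ratio of balanced contact per valid bin pair against separation (classes in Mb) within 19p, within 19q and between the arms, for 6 comparisons. In DNMT1-AID cells with auxin, contact at 10 to 15 Mb dips within 19p (-0.55 after 4 d), and between the arms the 5 to 10 Mb class stands above 0 (0.63 after 10 d) while classes from 15 to 50 Mb lie below it.

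Contact between the arms was higher near the centromere after auxin in DNMT1-AID cells, and lower farther out. At 5 to 10 Mb, pairs that join the 19p flank of the centromere to its 19q flank, the log2 change in DNMT1-AID cells was 0.37 after 4 d and 0.63 after 10 d. These were the highest of the 14 chromosomes with enough bin pairs, of which the next reached 0.034 and -0.12, and the medians were -0.07 and -0.27. Raw contacts in this class were 5.91% of all inter-arm contacts of chromosome 19 after 4 d (95% interval 5.79% to 6.02%) and 6.59% after 10 d (6.46% to 6.72%), against 3.62% untreated (3.51% to 3.73%). After washout they were 3.54% (3.33% to 3.77%), with a log2 change in balanced contact of 0.070, within its counting half-width of 0.10. This class was picked out after its values were seen.

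The difference was widest at 8 to 10 Mb. Balanced contact at 8 to 9 Mb was 1.53-fold its untreated level after 4 d and 2.13-fold after 10 d in DNMT1-AID cells (1937 and 2124 raw contacts, against 724 untreated). At 9 to 10 Mb it was 1.62-fold after 4 d and 1.995-fold after 10 d. Nearer the centromere the balanced values turned: at 4 to 5 Mb the log2 change was -0.15 after 4 d and -0.30 after 10 d. As raw shares of inter-arm contacts the changes at 4 to 5 Mb were above 0, at 0.18 after 4 d (half-width 0.10) and 0.091 after 10 d (half-width 0.11). Farther out the balanced log2 change was 0.32 at 10 to 12 Mb and -0.49 at 12 to 14 Mb after 10 d. The number of valid bin pairs at 5 to 10 Mb was 6734 after 4 d and 7176 after 10 d, against 7279 untreated.

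In knockout cells the class from 5 to 10 Mb as a whole lay within counting error of 0, but its parts did not all do so. The log2 change was 0.063 after 4 d and 0.018 after 10 d, with a counting half-width of 0.067 each, though each was the highest of 14 chromosomes, whose medians were -0.25 and -0.39. After 10 d the log2 change was -0.32 at 5 to 6 Mb (half-width 0.16), 0.32 at 8 to 9 Mb (half-width 0.14) and 0.24 at 9 to 10 Mb (half-width 0.13). From 8 to 10 Mb balanced contact thus had the sign seen in DNMT1-AID cells, but raw shares of inter-arm contacts did not show it. Their changes were -0.00053 at 8 to 9 Mb and 0.052 at 9 to 10 Mb, both within the half-widths, against 1.32 and 1.23 in DNMT1-AID cells after 10 d. The raw shares of the whole class were 4.46% after 4 d and 3.54% after 10 d, against 3.87% untreated, so at 10 d the raw share and the balanced value had opposite signs. Valid bin pairs in this class numbered 5895 after 4 d and 4366 after 10 d, against 6566 untreated, and the part of this in the values was not tested. Untreated knockout cells already stood above untreated DNMT1-AID cells at 9 to 10 Mb, 1.63-fold (810 raw contacts, against 586), and below them at 6 to 8 Mb, such as 0.773-fold at 7 to 8 Mb.

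**Figure D5:**
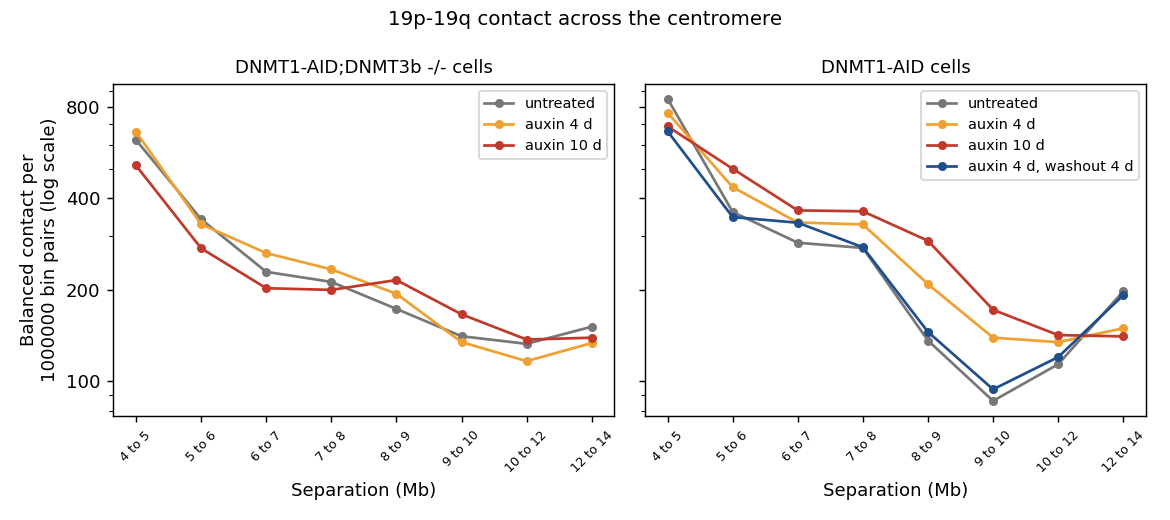
Lines give balanced contact between 19p and 19q per 1000000 bin pairs (log scale) against separation (Mb) across the centromere, for knockout cells (left) and DNMT1-AID cells (right). At 8 to 9 Mb the DNMT1-AID libraries gave 136 untreated, 209 after 4 d, 290 after 10 d and 145 after washout, and the knockout libraries 173 untreated, 194 after 4 d and 215 after 10 d.

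Farther apart, from 15 to 30 Mb, contact between the arms was lower after auxin. In DNMT1-AID cells the log2 change between the arms was -0.48 at 15 to 20 Mb after 4 d and -0.63 after 10 d, and -0.53 and -0.57 at 25 to 30 Mb, each the lowest of the chromosomes measured (16 and 17). At 15 to 20 Mb knockout cells gave -0.26 after 4 d, the lowest of 16 chromosomes, whose median was -0.11. After 10 d they gave -0.24, rank 9 of 16 from the highest and close to the median of -0.23. At 30 to 40 Mb the knockout value after 10 d was 0.013 (rank 5 of 18). At equal separations from 5 to 30 Mb, contact between the arms over contact within them had a ratio on chromosome 19 of 0.899 untreated, 0.930 after 4 d, 0.722 after 10 d and 0.847 after washout in DNMT1-AID cells. In knockout cells it was 0.920 untreated, 0.754 after 4 d and 0.732 after 10 d. The ratio was thus lowest at 10 d in both genotypes. In knockout cells the order of 4 d and 10 d turned on raw counts (log2 change -0.25 after 4 d and -0.20 after 10 d). At 5 to 10 Mb alone the ratio was 0.701 untreated and 1.08 after 4 d in DNMT1-AID cells, and higher still after 10 d.

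Contact between the ends of chromosome 19 was higher after 10 d. At 50 Mb or more, pairs that join the tips of 19p and 19q, the log2 change was 0.75 in knockout cells (1918 raw contacts at 10 d, 792 untreated, counting half-width 0.12) and 0.17 in DNMT1-AID cells (1401, against 777, half-width 0.13), each the highest of 18 chromosomes. The next chromosome after 10 d reached 0.54 in knockout cells and 0.14 in DNMT1-AID cells. After washout the log2 change was 0.19 (rank 2 of 18), close to the DNMT1-AID value at 10 d. It rested on 225 raw contacts, against 777 untreated, and lay within its counting half-width of 0.21. After 4 d the log2 change was -0.34 in DNMT1-AID cells and -0.32 in knockout cells, each the lowest of 18.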

How the data were processed

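Hi-C libraries were made from DLD-1 cells with an Arima kit, per the labels' protocols, and BWA placed the reads on hg38, as the submitters' processing notes say. Not given in the sources used here: its version, the pair filters, and the programs for balancing and tabulation. The deposited count values are raw contacts per 50 kb separation, masked bins included, per the file headers and the values. The balanced signal, as deposited, is contact after the authors' matrix balancing, summed over valid bin pairs, whose number the same tables give. Balancing gives each bin the same total, so raw counts were used for shares and balanced values for levels.

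Chromosomes 1 to 22 and X were used, with separations from 2 bins on. Pair levels are balanced contact per valid bin pair over the library's median pair; a change of at least 0.1 (log2) is the mark for pairs and arms. Chromosome 19 bins with valid values numbered 999 (knockout, 10 d) to 1033 (DNMT1-AID, 10 d). Inter-arm ratios match each separation with at least 20 valid bin pairs. Counting half-widths are 95% Poisson values from raw counts, shares have 95% exact binomial intervals, and neither holds the spread between cultures. The text names the 3 highest and 3 lowest partners of each comparison and 3 lists of chromosomes. The members and lists were chosen with earlier results of these data known. Ratios were tested on simulated data. Python 3.11.15, numpy 2.4.6, pandas 2.3.3 and scipy 1.17.1 were used.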

Additional observations from a re-analysis of the deposited data

Results flagged for a closer look

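In 8 values of chromosome 19, the change after auxin had opposite signs in the knockout and the DNMT1-AID cells, each set against its own untreated library. With 1 library per group, none of these differences between genotypes was tested.

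After 4 d, the log2 change of the share of contacts with other chromosomes was 0.019 in knockout cells and -0.00051 in DNMT1-AID cells, a difference of -0.020 (DNMT1-AID minus knockout, as for each difference here). The DNMT1-AID value lay within its counting half-width of 0.0035, and with contacts within the chromosome counted from 1 Mb both changes were above 0 (0.039 in knockout and 0.063 in DNMT1-AID cells). The inter-arm ratio at matched separations had a log2 change of -0.29 in knockout cells and 0.050 in DNMT1-AID cells, a difference of 0.34. The median change of the 4 small gene-rich partners was 0.050 in knockout cells and -0.031 in DNMT1-AID cells, a difference of -0.081, and that of the 5 acrocentric partners was 0.078 in knockout cells and -0.011 in DNMT1-AID cells, a difference of -0.089. The acrocentric median of DNMT1-AID cells was the value of chromosome 21, which lay within its counting half-width of 0.0235.

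After 10 d, the share of contacts at 10 Mb or more had a log2 change of 0.037 in knockout cells and -0.31 in DNMT1-AID cells on 19p, a difference of -0.35. The knockout value lay within its counting half-width of 0.046, and the DNMT1-AID value turned sign (0.058) with contacts counted from 15 Mb. On 19q it was 0.28 in knockout cells and -0.098 in DNMT1-AID cells, a difference of -0.38. The small gene-rich partners gave 0.086 in knockout cells and -0.059 in DNMT1-AID cells, a difference of -0.15, and the acrocentric partners 0.063 and -0.011, a difference of -0.073. Here the acrocentric median of DNMT1-AID cells was the value of chromosome 14, within its counting half-width of 0.0183.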

How the results depend on the processing

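No paired analysis was possible because each group holds 1 library, and for the same reason no library was left out. Values below are log2 changes or counts of partners in the order DNMT1-AID 4 d, 10 d and washout, knockout 4 d and 10 d, each against untreated, and knockout against DNMT1-AID untreated, and settings that changed a value by less than the counting error are left out. The cause of the changes was not tested.

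With a boundary of 15 Mb in place of 10 Mb, the change of the 19p share turned sign after 10 d in DNMT1-AID cells (0.058), after washout (0.059) and in knockout against DNMT1-AID cells (0.015). Other 19p values at 15 Mb were -0.52 after 4 d and 0.34 in knockout cells at 10 d. The 19q values at 15 Mb were -0.51 and -0.033 in DNMT1-AID cells at 4 d and 10 d, 0.0088 (sign turned) and 0.24 in knockout cells at 4 d and 10 d, and -0.35 between genotypes. With a boundary of 5 Mb, 19p gave -0.34 and -0.15 in DNMT1-AID cells at 4 d and 10 d, -0.18 and 0.090 in knockout cells, and -0.16 between genotypes, and after washout the sign turned (0.0088). The 19q values at 5 Mb were -0.36, -0.14 and, with the sign turned, -0.022 in DNMT1-AID cells, -0.088 and 0.17 in knockout cells, and -0.21 between genotypes.

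The share of contacts with other chromosomes, with contacts within the chromosome counted from 1 Mb, changed by 0.063, 0.15, 0.056, 0.039, 0.056 and 0.11. From balanced sums it was 0.26 at 10 d and 0.11 after washout in DNMT1-AID cells, 0.00021 and 0.20 in knockout cells, and 0.17 between genotypes. Without partners 8 and 22 it was 0.24 at 10 d in DNMT1-AID cells, 0.16 at 10 d in knockout cells and 0.15 between genotypes.

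Of 22 partners, 11 lay above 0 on raw counts after washout, 11 in knockout cells at 4 d, 11 at 10 d and 14 between genotypes, and 14 between genotypes relative to the mean pair. The raw scale takes out a shift common to all partners, so the raw numbers cannot show such a shift. Direction was kept in 71 of 72 alternatives for single named partners, 18 of 18 for the inter-arm ratio, 16 of 18 for the share of contacts with other chromosomes, 14 of 18 for the 19p share, 16 of 18 for the 19q share and 6 of 12 for inter-arm contact at 5 to 10 Mb. On raw counts the inter-arm ratio changed by -0.27 at 10 d and -0.041 after washout in DNMT1-AID cells, -0.25 and -0.20 in knockout cells, and 0.090 between genotypes. At 10 to 20 Mb it was 0.081, -0.18, -0.025, -0.19, -0.37 and 0.074 in the 6 comparisons. Against 19q alone it was -0.31 in knockout cells at 10 d and 0.054 between genotypes.

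As a share of all chromosome 19 contacts, a setting chosen after seeing the data, the 5 to 10 Mb inter-arm contacts changed by 0.27 after 4 d and 0.46 after 10 d in DNMT1-AID cells, -0.037 after washout, -0.026 and -0.30 in knockout cells, and -0.20 between genotypes. Depth limits most the washout library and contacts within 19p at 20 Mb or more.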

Other observations

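The decay of contact with distance was shallower on 19q than on most arms. Between 0.5 and 5 Mb the slope of log10 contact on log10 separation was -1.26 on 19q in untreated DNMT1-AID cells (rank 2 of 41 arms from the shallowest), -1.36 after 4 d, -1.30 after 10 d and -1.25 after washout, and the median arm gave -1.40, -1.47, -1.39 and -1.38. In knockout cells 19q gave -1.38 untreated (rank 1), -1.40 after 4 d and -1.33 after 10 d. On 19p it was -1.36 untreated, -1.45 after 4 d, -1.38 after 10 d and -1.33 after washout in DNMT1-AID cells, and -1.42, -1.45 and -1.33 in knockout cells untreated, after 4 d and after 10 d. Contacts under 1 Mb made up 76.3% of those within 19p after 4 d, 74.5% after 10 d and 73.0% after washout, against 72.5% untreated, in DNMT1-AID cells.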
